A study of Mus musculus with 20 samples.

Results

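Axon guidance ligands and receptors are the proteins that steer growing axons and migrating neurons, and here their RNAs were followed in mouse cerebellum and forebrain, with wild-type and knock-in animals compared. The genes were chosen by symbol alone: all semaphorins (Sema), plexins (Plxn), neuropilins (Nrp1, Nrp2), slits (Slit), roundabouts (Robo), netrins (Ntn), the netrin receptors Dcc and Unc5, ephrins (Efna, Efnb) and their Eph receptors (Epha, Ephb). The array held 102 such probe sets of 60 genes, among 20380 probe sets of 12393 genes that the annotation tied to a single symbol. A probe set is a group of short oligonucleotides that together give 1 value for a transcript. Unc50, which only shares the first letters of its symbol with the netrin receptors and encodes a membrane protein of the secretory pathway, was set aside with its 3 probe sets (1421982_a_at lay above the limit described below on all 20 arrays). This left 99 probe sets of 59 guidance genes, of which 75 probe sets of 49 genes were bright enough to test. The other 24 probe sets did not exceed the 40th percentile of an array on at least 2 arrays. Efna1, Efna4, Efna5, Epha1, Epha2, Ephb4, Ntng2, Robo3, Sema3b and Sema3f had no other probe set and were therefore not tested.

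Total RNA was measured on 20 single-channel arrays in 8 groups: knock-in or wild-type, cerebellum or forebrain, with 3 arrays per group at 4 weeks and 2 per group at 11 weeks (12 in the titles). The labels name neither the knocked-in allele nor the strain, and they do not say whether arrays hold RNA of separate mice, so the p-values reflect sample-to-sample spread that may be technical. The source and the start of the title name cerebellum for 7 of the 10 forebrain arrays (those outside the wild-type 4-week group), and for knock-in forebrain 4 weeks replicate 3 the description does so too. The region of each array was taken from the abbreviated code in its title, Cb or Cx. Arrays with Cx are called forebrain here because the wild-type 4-week titles with that code use this word, and the code itself does not spell it out. The marker genes of the regions went with that code on every array: Pcp2, a Purkinje cell gene, read 38010 to 55244 on the 10 cerebellum arrays and 50.0 to 579 on the 10 forebrain arrays, while Bcl11b, a gene of deep-layer cortical and striatal neurons, read 13.8 to 31.9 and 3472 to 6182. The arrays had median intensities of 979 to 1180. Within each region and age, every knock-in array had a higher median and a higher limit on dim probe sets than every wild-type array. In forebrain at 4 weeks the medians were 1097 to 1117 in knock-in and 979 to 1036 in wild-type mice. The limits there were 728 to 758 and 606 to 659. Genotype counts under other scalings are given below, and the part of this shift in single genotype calls near the limit was not tested. RNA integrity, read from the GAPDH 3'/5' ratio, ranged from 0.744 to 0.903 over all arrays, with 0.827 to 0.890 in knock-in and 0.744 to 0.828 in wild-type forebrain at 4 weeks, and its part in the results below was not tested.

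Guidance ligands act on receptors at the growth cone, the moving tip of an axon, and attract or repel it. Slits repel through Robo receptors, netrins attract through Dcc and repel through Unc5 receptors, secreted class 3 semaphorins act through neuropilins with plexins, and membrane-bound semaphorins act on plexins directly. Ephrins are membrane-bound ligands of Eph receptor tyrosine kinases, and in the mature brain many of these proteins persist at synapses.

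The promoters of 6 guidance genes named in the results below are shown first. Plxnd1, Sema7a and Sema4g were called between genotypes in forebrain. Slit2, Ephb6 and Unc5b had the largest wild-type region difference of their families among genes with an entry in the RefSeq promoter table. Each line gives the 150 bases before the transcript start, 5′ to 3′ on the gene's strand, from RefSeq on GRCm38.p6, with the GC box GGGCGG in capitals on either strand (CCGCCC when it lies on the opposite strand).
Plxnd1, chr6:115995006-115995155, minus strand: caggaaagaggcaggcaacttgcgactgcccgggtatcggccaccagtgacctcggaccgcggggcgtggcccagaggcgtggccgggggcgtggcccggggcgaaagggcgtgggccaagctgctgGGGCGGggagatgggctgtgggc
Sema7a, chr9:57939962-57940111, plus strand: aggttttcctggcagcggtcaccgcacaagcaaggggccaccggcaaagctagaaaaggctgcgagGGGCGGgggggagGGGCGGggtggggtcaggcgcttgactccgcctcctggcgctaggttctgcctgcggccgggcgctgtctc
Sema4g, chr19:44989194-44989343, plus strand: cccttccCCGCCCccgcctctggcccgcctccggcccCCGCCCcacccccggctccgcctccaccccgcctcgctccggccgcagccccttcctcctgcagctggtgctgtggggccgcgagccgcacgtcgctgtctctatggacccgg
Slit2, chr5:47983005-47983154, plus strand: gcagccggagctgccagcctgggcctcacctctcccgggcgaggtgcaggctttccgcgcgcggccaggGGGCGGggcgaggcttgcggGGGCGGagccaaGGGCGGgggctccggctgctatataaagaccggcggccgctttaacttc
Ephb6, chr6:41605361-41605510, plus strand: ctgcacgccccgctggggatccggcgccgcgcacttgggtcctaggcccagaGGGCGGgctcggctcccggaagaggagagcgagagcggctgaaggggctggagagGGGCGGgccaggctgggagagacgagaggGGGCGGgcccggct
Unc5b, chr10:60831582-60831731, minus strand: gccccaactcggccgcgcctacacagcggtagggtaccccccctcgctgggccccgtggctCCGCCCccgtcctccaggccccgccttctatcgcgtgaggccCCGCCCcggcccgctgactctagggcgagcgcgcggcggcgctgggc
The 6 windows hold 1 to 3 GC boxes each, and 12 to 20 CG pairs. The same window held a GC box on either strand for 71.9% of the 64 transcript starts of guidance genes in the table, which cover 51 of the 59 genes, against 28.6% of all 32851 starts. The median number of CG pairs was 10.5 against 4. The other motifs searched on both strands were the CCAAT box CCAAT (17.2% against 24.5%), the E-box CACGTG (4.69% against 4.3%), the cAMP response element TGACGTCA (1.56% against 1.36%) and the capicua octamer TGAATGAA (1.56% against 0.581%). These shares describe the letters of the windows and were not set against the arrays.

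Between the regions, more guidance probe sets were lower than higher in cerebellum. In wild-type mice 18 of the 75 probe sets were higher in cerebellum and 41 were lower, which is 78.7% called, where 47.9% of all 15627 tested probe sets were called (26.6% higher and 21.3% lower). A probe set was called at a Benjamini-Hochberg adjusted p under 0.05 in limma, a linear model with moderated variances fitted to log2(intensity + 16) of all 20 arrays. In knock-in mice 17 were higher and 42 lower, again 78.7%, where 45.6% of all were called (24.5% higher and 21.2% lower). The median difference of the guidance probe sets was −0.89 on the log2(intensity + 16) scale in wild-type and −0.55 in knock-in mice, beside 0.04 and 0.02 over all probe sets. A probe set kept because it is bright in a single region is bound to differ: of the 53 guidance probe sets above the limit on at least 2 arrays in each region, 39 were called in wild-type mice (13 higher and 26 lower) and 38 in knock-in mice (12 higher and 26 lower), where 46.5% and 44.4% of all such probe sets were called. Of these 53, the 22 receptor probe sets had 5 higher and 12 lower in wild-type mice, and the 31 ligand probe sets had 8 higher and 14 lower. Over the 10 arrays of each region, 13 of the 75 probe sets were never above the limit in cerebellum and 5 never in forebrain.

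Among Eph receptors, both EphB genes tested and 7 of 10 EphA probe sets were lower in cerebellum. Ephb6, an Eph receptor without kinase activity, read 63.2, 319 and 615 on the cerebellum arrays (lowest, median and highest of 10) and 3241, 4070 and 4804 on the forebrain arrays. The ranges lay far apart, and the wild-type difference was −3.84 ± 0.33 (SE, adjusted p = 1.02e-07), which is at least 6.53-fold lower in cerebellum when the dim values are raised to the array's 40th percentile, since Ephb6 exceeded it on no cerebellum array. Ephb3, a receptor of B-class ephrins, read 57.6, 83.1 and 405 in cerebellum and 1350, 2120 and 2615 in forebrain, again below the limit on every cerebellum array (at least 3.46-fold lower in wild-type mice, adjusted p = 3.01e-06). Neither EphB receptor overlapped between the regions on any array. Both entered the test through forebrain alone and were bound to differ, so their p-values and lack of overlap add no support. The same holds below for Epha5 (1437920_at), Epha8, Slit1, Ntn4 and any other probe set above the limit in a single region. Epha5, a receptor of A-class ephrins, had 212.7, 256 and 393 in cerebellum against 2580, 3030 and 3549 in forebrain with probe set 1437920_at (−3.64 ± 0.13, at least 4.99-fold lower, adjusted p = 2.94e-12). Epha4, which binds ephrins of both classes, was measured in both regions and read 703, 1069 and 1316 in cerebellum against 4637, 5704 and 6346 in forebrain with 1421928_at, a 6.02-fold difference in wild-type mice (−2.59 ± 0.11, adjusted p = 1.90e-11). Epha6 was 3.44-fold lower and Epha7 2.05-fold lower (1427528_a_at).

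Epha8 went the other way. It read 1183, 1619 and 1959 in cerebellum and 102, 233 and 468 in forebrain, where it stayed below the limit on every array, so cerebellum was at least 2.52-fold higher in wild-type mice (2.63 ± 0.26, adjusted p = 3.81e-07). Epha3 was also higher in cerebellum with probe set 1425574_at, but exceeded the limit on no forebrain array, which leaves at least 1.21-fold in wild-type and 1.10-fold in knock-in mice. The ligands of these receptors showed no member that was higher in cerebellum. Efna3, a lipid-anchored ephrin, read 872 to 1219 in cerebellum and 3178 to 3961 in forebrain (−1.83 ± 0.09, adjusted p = 1.28e-10). Of the 8 probe sets of transmembrane ephrin-B ligands 5 were lower in wild-type and 6 in knock-in cerebellum. Efnb1 was lower with all 3 of its probe sets, by 0.89 to 0.96 in wild-type mice. Efnb2 was lower with 2 of 4 probe sets in wild-type mice, 1419639_at (−1.40 ± 0.22) and 1449548_at, which exceeded the limit on no cerebellum array (at least 1.35-fold lower). The first of these had −0.41 ± 0.22 (adjusted p = 0.150) in knock-in mice. Efnb3 did not pass in wild-type mice (0.09 ± 0.15) and was lower in knock-in cerebellum (−0.41 ± 0.15, adjusted p = 0.0381).

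**Figure D1:**
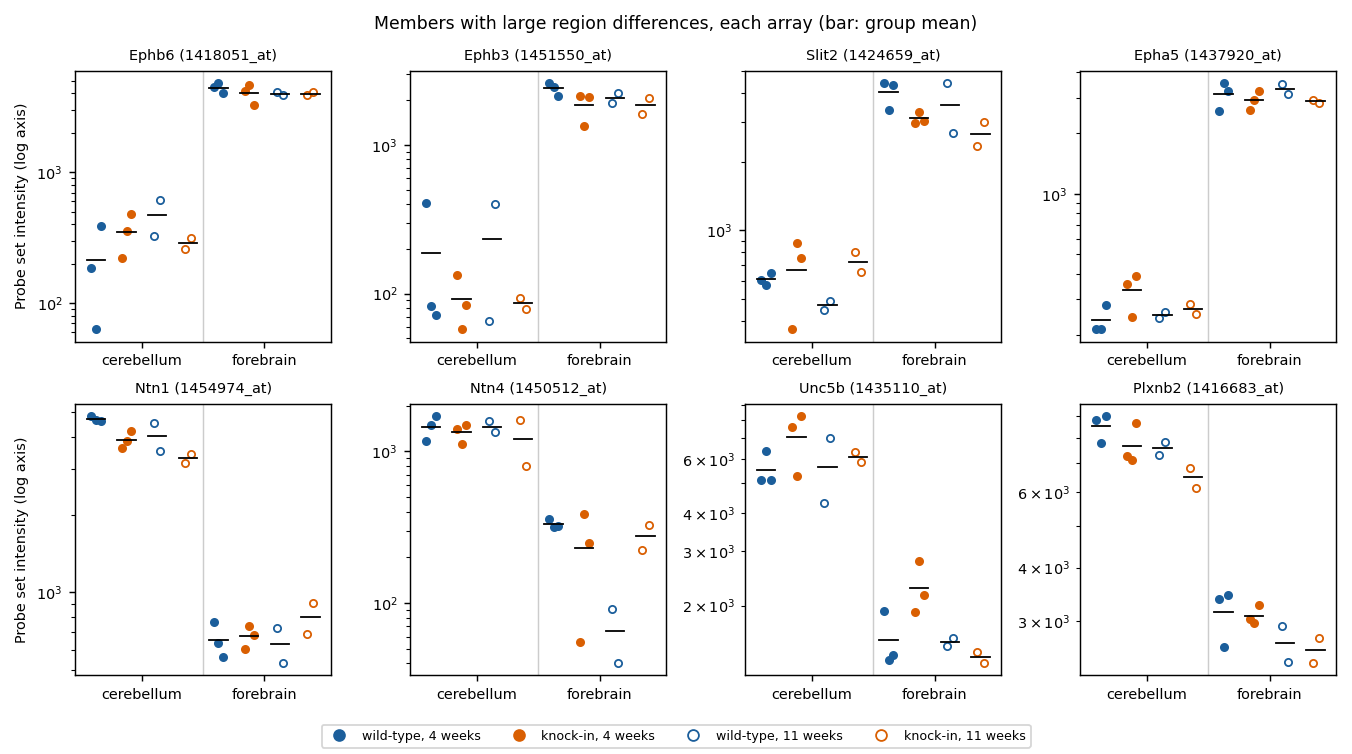
Intensity on a log axis of 8 guidance probe sets on each of the 20 arrays, by region, genotype (blue wild-type, orange knock-in) and age (filled 4 weeks, open 11 weeks), with a bar at each group mean. The top row (Ephb6, Ephb3, Slit2, Epha5) lies higher on every forebrain array and the bottom row (Ntn1, Ntn4, Unc5b, Plxnb2) higher on every cerebellum array.

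Slits, the secreted repellents, were lower in cerebellum with each of their 4 probe sets in both genotypes, but only 1424659_at of Slit2 and the probe set of Slit3 exceeded the limit in both regions. The other Slit2 probe set, 1451430_at, was below it on all cerebellum and all knock-in forebrain arrays, so that its knock-in call is between dim values. Slit2 read 366, 626 and 876 on the cerebellum arrays and 2335, 3165 and 4444 on the forebrain arrays with 1424659_at, a 6.83-fold difference in wild-type mice (−2.77 ± 0.20, adjusted p = 1.13e-08) and a 4.19-fold difference in knock-in mice. Slit1 read 117, 163 and 468 against 873, 1869 and 2227, below the limit on every cerebellum array, and was at least 2.28-fold lower there (adjusted p = 1.57e-08). Slit3 had a smaller difference of −1.17 ± 0.26 (adjusted p = 0.00147). Of the Slit receptors, Robo1 was lower in cerebellum in both genotypes (−0.92 ± 0.19 in wild-type mice), but it exceeded the limit on no cerebellum array, which leaves a bound of at least 1.05-fold. Robo4, the roundabout of blood vessels, did not pass (−0.11 ± 0.14).

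The netrin system divided by gene. Ntn1, the founding secreted netrin, read 3174, 4036 and 4810 in cerebellum and 534, 687 and 913 in forebrain with 1454974_at, 6.68-fold higher in wild-type cerebellum (2.74 ± 0.12, adjusted p = 2.52e-11). Ntn4, a netrin of basement membranes, read 806, 1440 and 1702 against 40.3, 282 and 385, so that cerebellum exceeded forebrain by at least 2.26-fold (adjusted p = 2.53e-06). The lipid-anchored netrin-G1 gene Ntng1 was lower in cerebellum (−1.08 ± 0.19 with 1449286_at). Ntn3 was lower too, by at least 1.22-fold in wild-type mice, where it exceeded the limit on no cerebellum array. Among the receptors, the repulsive Unc5b read 4326, 6088 and 8245 in cerebellum and 1303, 1527 and 2802 in forebrain (1.84 ± 0.16, 3.58-fold, adjusted p = 1.48e-07). Unc5c, whose loss malforms the mouse cerebellum, was higher in cerebellum with both probe sets, by 0.66 ± 0.10 and 0.89 ± 0.10. Dcc, the attractive receptor, did not pass in wild-type mice (−0.14 ± 0.15) and was lower in knock-in cerebellum (−0.47 ± 0.15, adjusted p = 0.0158). Ligand Ntn1 and receptors Unc5b and Unc5c were thus higher in cerebellum, and no netrin receptor probe set was lower there in wild-type mice.

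Neuropilins, the co-receptors of secreted semaphorins, were lower in cerebellum with all 4 probe sets in both genotypes. In wild-type mice Nrp1 had −1.53 (1418084_at) and −1.64 (1448943_at), and 1448944_at, which exceeded the limit on no cerebellum array, was at least 1.15-fold lower. Nrp2 was 2.11-fold lower (−1.08 ± 0.12, adjusted p = 2.46e-06). Plexins, the signalling receptors of semaphorins, went both ways, with 2 probe sets higher and 6 lower of 11. Plxnd1, the receptor of Sema3e, read 594, 843 and 1055 in cerebellum and 1868, 3800 and 5268 in forebrain, 4.96-fold lower in wild-type cerebellum (−2.31 ± 0.14, adjusted p = 1.65e-09). Plxnc1, the receptor of Sema7a, was lower with all 4 of its probe sets, with −1.42 to −1.29 for 3 of them and at least 1.71-fold for 1423214_at, which exceeded the limit on no wild-type cerebellum array. Plxna2 was lower by less (−0.57 ± 0.16). Plxnb2, a receptor of class 4 semaphorins that cerebellar granule cell precursors use, read 6133, 7557 and 8984 in cerebellum and 2402, 2947 and 3444 in forebrain (1.47 ± 0.10, 2.78-fold higher, adjusted p = 5.74e-09). Plxnb3 was higher in cerebellum by 0.53 ± 0.15.

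Semaphorins went both ways, with 7 probe sets higher, 8 lower and 7 not called of 22 in wild-type mice. The higher ones were membrane-bound: Sema4g (0.95 ± 0.13), Sema6d (0.79 ± 0.14), Sema6c (0.64 ± 0.10 with 1451898_a_at), Sema4f (0.52 ± 0.09), Sema4d with 2 of its 3 probe sets (0.58 ± 0.14 and 0.54 ± 0.09) and Sema7a (0.44 ± 0.15, 1459903_at). Each of the secreted class 3 genes tested, Sema3a, Sema3c and Sema3e, had a probe set that was lower in cerebellum. Sema3e had −2.10 ± 0.57 with 1427673_a_at, which exceeded the limit on no wild-type cerebellum array (at least 1.32-fold lower). The membrane-bound Sema4a (−1.69 ± 0.09, 1448110_at), Sema6b (−1.17 ± 0.28) and Sema5b (−0.56 ± 0.11) were lower as well. Sema4a stood at 814 to 1198 in cerebellum and 1754 to 3925 in forebrain.

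The region pattern was shared by the genotypes, which share no array. Of the 75 probe sets 56 were called in the same direction in both, 3 in wild-type mice alone, 3 in knock-in mice alone and 13 in neither, and 68 had the same sign. Pearson's r between the wild-type and knock-in differences was 0.967 across the 75 probe sets, which are not independent and share the array design. The 75 include probe sets kept through a single region, which are bound to differ. Neither r nor these shared counts are given here for the 53 measured in both regions or for all probe sets. The cerebellum and forebrain values of 35 probe sets of 23 genes did not overlap at all over the 10 arrays of each region, where 19.5% of all 15627 probe sets did not overlap. Among the 53 measured in both regions 22 did not overlap, where 18.1% of all such probe sets did not. The wild-type groups at 4 weeks are the only cerebellum and forebrain pair of the same genotype and age whose labels all name their region. That comparison alone called 57 guidance probe sets, where 39.5% of all were called, and 57 of the 59 wild-type calls were also called there. Its arrays also enter the wild-type comparison of both ages, so the shared calls are no independent support. With 1 probe set per gene, 39 of the 49 genes were called in wild-type mice, where 50.4% of all 9105 genes were.

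**Figure D2:**
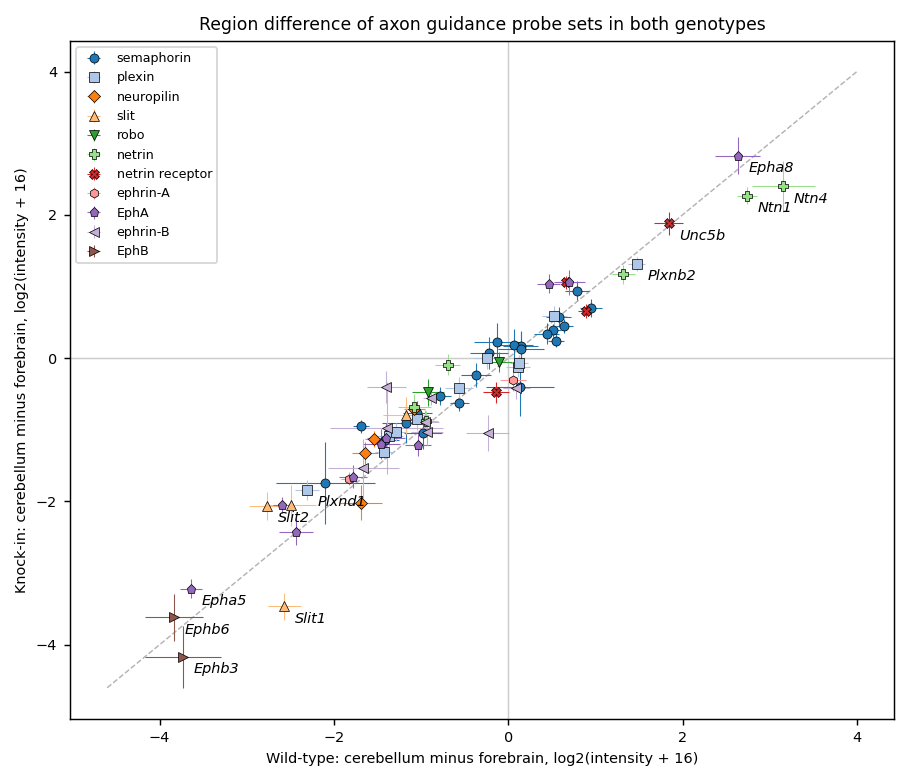
Cerebellum minus forebrain difference of each of the 75 guidance probe sets in wild-type (x axis) and knock-in mice (y axis), log2(intensity + 16), with bars of 1 SE and a symbol per family. Points follow the dashed line of equal differences (Pearson's r 0.967), with 68 of 75 on the same side of 0. They run from Ephb3 and Ephb6 at the lower left to Epha8, Ntn1 and Ntn4 at the upper right. Probe sets above the limit in a single region, which are bound to differ, are included.

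In whole tissue, fewer cells of a type and less RNA per cell cannot be told apart, and cell type markers moved with region. In wild-type mice all 9 granule cell probe sets were higher in cerebellum (summed intensity 172874 to 206382 against 5662 to 8026 over both genotypes), as were all 8 of Purkinje cells and all 6 of choroid plexus (105228 to 253507 against 2789 to 53489). All 5 pyramidal cell probe sets (1203 to 3234 against 50503 to 88272) and all 7 of microglia (13543 to 16543 against 34422 to 45450) were lower in cerebellum. Of 13 oligodendrocyte probe sets 11 were higher and 2 lower, and of 9 astrocyte probe sets 5 were higher and 1 lower. None of 7 endothelial probe sets was called, and the striatal list kept only Penk and Ppp1r1b, both higher in cerebellum. Their part in the guidance differences was not tested.

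Between genotypes, guidance genes in forebrain changed in both directions. Averaged over both ages, 14 of 75 probe sets were called, 9 higher and 5 lower in knock-in forebrain, which is 18.7% where 13.5% of all probe sets were called, so the share lies near the background. The median difference was −0.03 beside 0.04 over all probe sets. Sema4a, Plxnd1, Sema7a, Plxnc1 and Epha4 fell. Sema6c, Sema4g, Efnb3, Plxna3, Efna2, Dcc, Ntn3, Ntn1 and Sema4f rose. The direction of the balance depended on scaling: 5 probe sets rose and 5 fell after quantile normalization, and 5 rose and 6 fell after cyclic loess, where all probe sets went from 1307 higher and 801 lower to 825 and 900, and to 691 and 1087. The calls of Sema4a, Plxnd1, Sema7a, Sema6c, Plxna3 and Sema4f held under each of the 11 other settings and without any 1 of the 10 forebrain arrays.

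Sema4a, a membrane-bound class 4 semaphorin also used by immune cells, had the lowest adjusted p. Its intensities in forebrain at 4 weeks were 3925, 3171 and 3436 in wild-type mice and 2038, 1754 and 2029 in knock-in mice. At 11 weeks they were 3053 and 3512 against 2121 and 2013. Every knock-in value lay below every wild-type value, and the difference was −0.75 ± 0.09 (adjusted p = 0.000283). It passed at each age, −0.85 ± 0.12 at 4 weeks (adjusted p = 0.00189) and −0.66 ± 0.14 at 11 weeks (adjusted p = 0.0420). A further probe set of Sema4a, 1438934_x_at, had −0.30 ± 0.17 and did not pass (adjusted p = 0.249). In cerebellum Sema4a differed by −0.01 ± 0.09 (adjusted p = 0.951), with 1021 to 1194 in wild-type and 1118 to 1198 in knock-in mice at 4 weeks and overlapping values at 11 weeks.

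Plxnd1, the receptor through which Sema3e repels axons and vessels, read 4907, 5055 and 4276 in wild-type forebrain at 4 weeks and 2939, 3142 and 3744 in knock-in forebrain. At 11 weeks the values were 3856 and 5268 against 1868 and 2490. The genotypes did not overlap at either age, and the mean difference was −0.80 ± 0.14 (adjusted p = 0.00362), with −1.06 ± 0.22 at 11 weeks (adjusted p = 0.0375) and −0.54 ± 0.18 at 4 weeks (adjusted p = 0.0766). Its ligand gene Sema3e had 0.30 ± 0.22 and −1.12 ± 0.57 with its 2 probe sets, and neither passed. In cerebellum Plxnd1 had −0.33 ± 0.14 (adjusted p = 0.194).

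Sema7a, a lipid-anchored semaphorin that acts on Plxnc1 and integrins, fell in both regions with probe set 1459903_at. Forebrain values at 4 weeks were 7845, 7861 and 6410 in wild-type and 4255, 5799 and 5375 in knock-in mice, and at 11 weeks 5898 and 6322 against 2839 and 3635. The groups did not overlap at either age (−0.72 ± 0.15, adjusted p = 0.00690). In cerebellum the 4-week values overlapped, with 6450, 8226 and 6162 against 4935, 4712 and 7593, while at 11 weeks they stood apart, with 10778 and 13320 in wild-type and 4709 and 4656 in knock-in mice. The cerebellar mean difference was −0.82 ± 0.15 (adjusted p = 0.00961) and held without any 1 of the 10 cerebellum arrays. The other Sema7a probe set, 1422040_at, did not pass in forebrain (−0.33 ± 0.27) or cerebellum (0.03 ± 0.27). Plxnc1, the receptor of Sema7a, fell in forebrain with 1450906_at, from 1944, 1506 and 1833 to 1364, 1183 and 1358 at 4 weeks and from 1665 and 2094 to 1279 and 1080 at 11 weeks (−0.54 ± 0.12, adjusted p = 0.0110). That call was lost without knock-in forebrain 11 weeks replicate 2 (adjusted p = 0.0581), and the other 3 Plxnc1 probe sets had −0.17 to 0.02 and did not pass. Epha4 fell with 1421929_at (−0.61 ± 0.19, adjusted p = 0.0456) and had −0.20 ± 0.11 with 1421928_at (adjusted p = 0.233).

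Sema6c, a transmembrane class 6 semaphorin, rose. With 1451898_a_at it read 1834, 1512 and 1473 in wild-type and 2840, 2662 and 2343 in knock-in forebrain at 4 weeks, and 1613 and 1746 against 2690 and 2204 at 11 weeks. The genotypes did not overlap at either age (0.62 ± 0.10, adjusted p = 0.00223). Its other probe set had 0.73 ± 0.26 (adjusted p = 0.0733). In cerebellum Sema6c also rose, from 2696, 2412 and 2504 to 3650, 3320 and 3096 at 4 weeks and from 2716 and 2490 to 4000 and 3134 at 11 weeks, again with no overlap (0.42 ± 0.10, adjusted p = 0.0341). Plxna3, which with Nrp2 forms a receptor of secreted semaphorins, rose in forebrain with 1420996_at (0.50 ± 0.11, adjusted p = 0.00869). Its values went from 2173, 2094 and 2758 to 2994, 3362 and 3233 at 4 weeks. At 11 weeks they went from 2148 and 2313 to 3162 and 3390. Sema4f rose from 2740, 2404 and 2583 to 3085, 2855 and 2757 and from 2207 and 2053 to 3302 and 3139 (0.38 ± 0.09, adjusted p = 0.0142). The values of both these probe sets stood apart between genotypes at each age. In cerebellum they had 0.31 ± 0.11 and 0.25 ± 0.09, and neither passed (adjusted p = 0.104 and 0.119). The other Plxna3 probe set, 1420995_at, did not pass in forebrain, with 0.24 ± 0.17 at 4 weeks (adjusted p = 0.411). In cerebellum it had 0.05 ± 0.14 (adjusted p = 0.880).

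**Figure D3:**
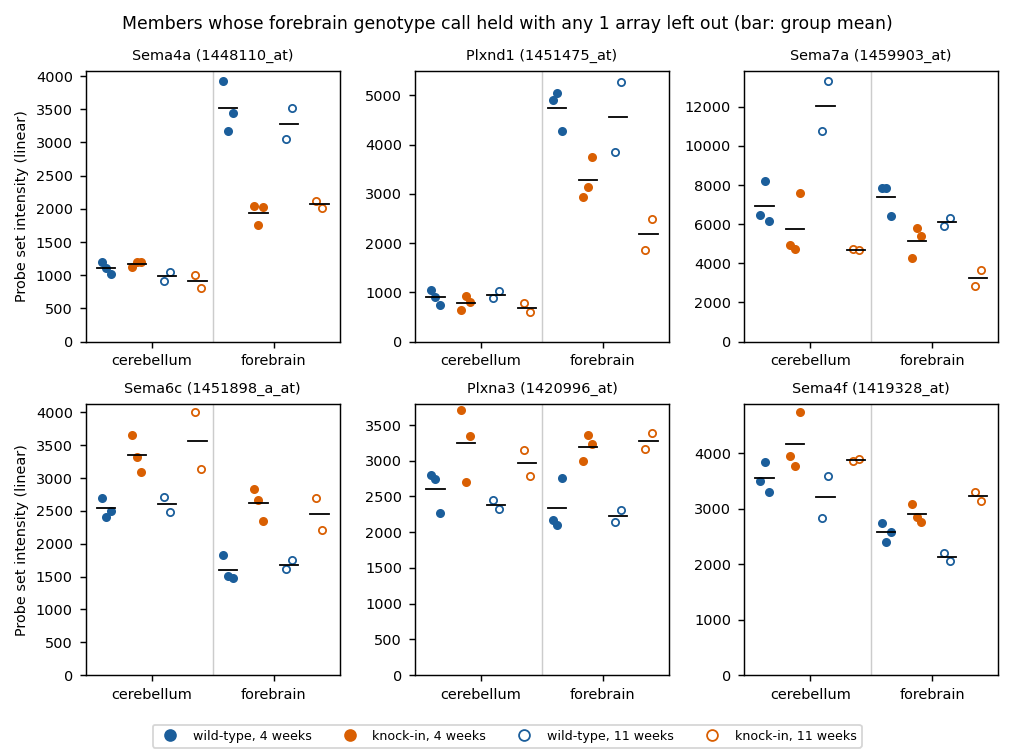
Linear intensity of 6 guidance probe sets on each of the 20 arrays, by region, genotype (blue wild-type, orange knock-in) and age (filled 4 weeks, open 11 weeks), with a bar at each group mean and axes from 0. In forebrain the knock-in points of Sema4a, Plxnd1 and Sema7a lie below and those of Sema6c, Plxna3 and Sema4f above the wild-type points of the same age, while Sema4a in cerebellum stays between 814 and 1198.

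The other rises in forebrain rested on more of the arrays. Sema4g, a membrane-bound class 4 semaphorin, read 3360, 3055 and 2967 in wild-type and 4061, 5325 and 3389 in knock-in forebrain at 4 weeks and 2731 and 1975 against 3271 and 3965 at 11 weeks (0.52 ± 0.13, adjusted p = 0.0161). Its call was lost without the second array of either genotype at 11 weeks (adjusted p = 0.0804 without the knock-in and 0.0662 without the wild-type array). Efnb3 (0.51 ± 0.15, adjusted p = 0.0384), Efna2 (0.49 ± 0.15, adjusted p = 0.0383), Dcc (0.47 ± 0.15, adjusted p = 0.0457), Ntn3 (0.47 ± 0.13, adjusted p = 0.0324) and Ntn1 (0.41 ± 0.13 with 1422987_at, adjusted p = 0.0470) rose too. For Dcc the 4-week values were 759, 744 and 761 in wild-type and 1118, 1067 and 1080 in knock-in forebrain, while at 11 weeks 625 and 950 overlapped with 1170 and 932. Ntn1 with this probe set exceeded the limit on no forebrain array, so its difference is one between dim values. These 5 calls and that of Epha4 held without only 1 to 4 of the 10 forebrain arrays left out in turn, with adjusted p up to 0.219 for Dcc without wild-type forebrain 11 weeks replicate 1. Under the other settings Efna2, Dcc and Ntn3 each kept their call in 6 of 11, and Ntn1 in 3 of 10. Efnb3 kept it in 9 of 11 and Epha4 in 9 of 10. The count of 14 fell to 6 without knock-in forebrain 11 weeks replicate 2, to 8 without wild-type forebrain 11 weeks replicate 1 and to 9 without knock-in forebrain 4 weeks replicate 1. It was 8 with no filter on dim probe sets.

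At single ages fewer guidance probe sets passed. In forebrain at 4 weeks 3 of 75 were called, where 7.37% of all were: Sema4a fell, and Sema6c (0.70 ± 0.13, adjusted p = 0.00690) and Ntn1 (0.66 ± 0.16 with 1422987_at, adjusted p = 0.0265, below the limit on every array) rose. The split was 1 higher and 2 lower after quantile normalization and 1 and 3 after cyclic loess. The Ntn1 call was lost without knock-in replicate 1 or 2 or wild-type replicate 3 (adjusted p = 0.0923, 0.0746 and 0.0843), and without wild-type replicate 1 the count was 5. Among those that did not pass, Efnb3 had 0.63 ± 0.19, Efna2 0.53 ± 0.19, Dcc 0.52 ± 0.19, Plxna3 0.46 ± 0.13, Sema4d 0.37 ± 0.12 (1420824_at), Slit3 −0.96 ± 0.33, Efnb2 −0.83 ± 0.28 (1419639_at), Sema7a −0.52 ± 0.18 (1459903_at) and Plxnc1 −0.43 ± 0.15 (1450906_at). In forebrain at 11 weeks Plxnd1 and Sema4a were the only 2 called, where 0.864% of all were, and both were lost without any 1 of the 4 arrays (adjusted p 0.0760 to 0.187 for Plxnd1 and 0.0917 to 0.259 for Sema4a). Sema7a had −0.92 ± 0.22 (1459903_at), Plxnc1 −0.66 ± 0.19 (1450906_at), Epha4 −0.83 ± 0.30 (1421929_at), Epha8 −0.82, Sema4f 0.59 ± 0.14, Plxna3 0.55 ± 0.16, Sema6c 0.53 ± 0.16, Ntn3 0.73 ± 0.21 and Ntn4 1.88 ± 0.56 there, and none of them passed. Ntn4 and Epha8 were below the limit on all 4 of these arrays.

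In cerebellum the genotypes differed in fewer guidance genes. At 4 weeks no guidance probe set was called by limma, where 0.0512% of all probe sets were called. The guidance probe sets with the lowest p were Ntn3 (0.81 ± 0.17, adjusted p = 0.0663), Epha4 (0.52 ± 0.14 with 1421928_at), Sema4b (0.99 ± 0.28), Nrp2 (0.53 ± 0.16) and Efnb2 (0.94 ± 0.28 with 1419639_at), all on the higher side. On the lower side the lowest p were those of Efnb2 with 1449549_at (−0.58), Epha4 with 1421929_at (−0.45), Ntn1 with 1454974_at (−0.27), Sema7a with 1459903_at (−0.30) and Plxnc1 with 1450906_at (−0.20). Of these, Ntn3 and Sema4b exceeded the limit on 1 knock-in and no wild-type array, and Efnb2 with 1449549_at on none. At 11 weeks Sema7a fell (−1.35 ± 0.22, adjusted p = 0.0183), where 0.346% of all were called. This call was lost without knock-in replicate 1 or 2 or wild-type replicate 2 (adjusted p = 0.0590, 0.149 and 0.142), and with only the compared groups in the model (adjusted p = 0.191), where no guidance probe set was called. Slit1 missed the threshold (−1.42 ± 0.29, adjusted p = 0.0520), with 335 and 468 in wild-type and 146 and 129 in knock-in cerebellum, all 4 below the limit. Robo1 (1.05 ± 0.29), Nrp1 (0.66 ± 0.17 with 1418084_at), Plxna1 (0.61 ± 0.23), Sema6c (0.44 ± 0.16 with 1451898_a_at), Epha3 (0.52), Efnb2 (−1.06 with 1449549_at), Epha4 (−0.74 with 1421929_at), Slit3 (−0.94 ± 0.40) and Plxnd1 (−0.47 ± 0.22) did not pass at 11 weeks, and Robo1 and both the Efnb2 and the Epha4 probe set named here were below the limit on all 4 arrays.

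Over both ages, 4 of 75 guidance probe sets were called in cerebellum, or 5.33%, where 3.35% of all were. Sema7a fell, and Sema6c, Robo1 and Ntn3 rose. Robo1, a receptor of slits, read 334, 301 and 331 in wild-type and 456, 601 and 478 in knock-in cerebellum at 4 weeks and 280 and 240 against 589 and 525 at 11 weeks. The groups did not overlap, but all 10 values lay below the limit on dim probe sets (0.84 ± 0.19, adjusted p = 0.0260). Ntn3, a secreted netrin, read 388, 376 and 367 against 848, 615 and 583 at 4 weeks and overlapped at 11 weeks (adjusted p = 0.0398). It exceeded the limit on 1 knock-in and no wild-type array, which leaves a rise of at least 1.13-fold. The split was 1 higher and 1 lower after quantile normalization and 1 and 3 after cyclic loess. Sema7a was called without any 1 array. Robo1 was lost without any 1 of the 4 arrays at 11 weeks (adjusted p 0.0532 to 0.0883), Sema6c without 7 and Ntn3 without 8 of the 10 arrays. The count was 1 without knock-in 11 weeks replicate 2 or either wild-type array at 11 weeks, and 2 without knock-in replicate 1 of either age or wild-type 4 weeks replicate 2 or 3. Epha3 (1425575_at) and Sema4b, both above the limit on no wild-type array, as well as Unc5c (0.28 ± 0.10 with 1419592_at), Slit1 (−0.46 ± 0.19), Efnb2 (−0.82 with 1449549_at), Plxnc1 (−0.28 with 1450906_at) and both Epha4 probe sets (0.34 with 1421928_at and −0.60 with 1421929_at) did not pass. Slit1 and this Efnb2 probe set were below the limit on every cerebellum array.

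**Figure D4:**
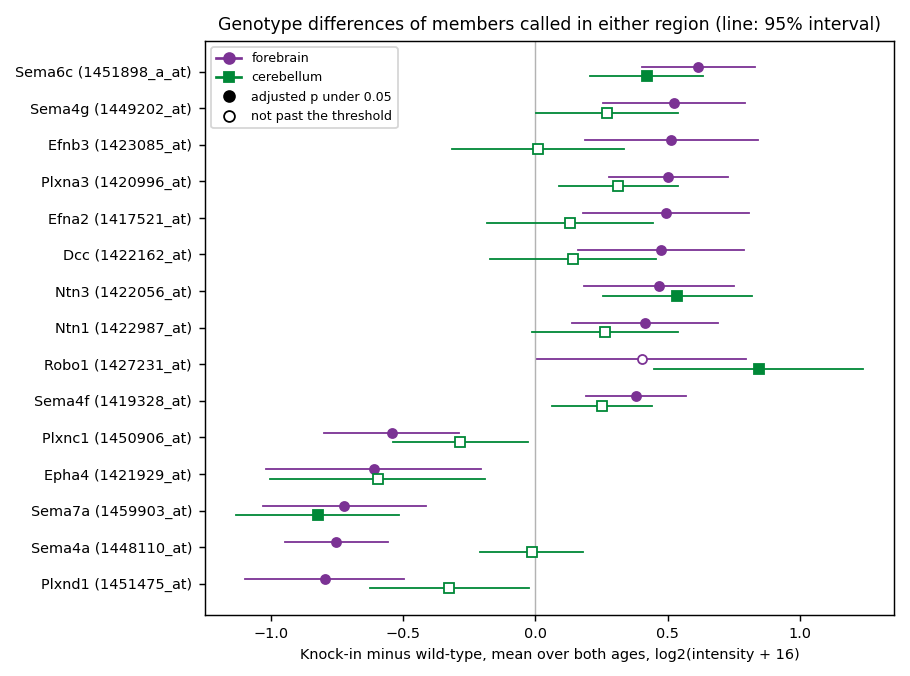
Knock-in minus wild-type difference, mean over both ages, of the 15 guidance probe sets called in either region, log2(intensity + 16), in forebrain (circles) and cerebellum (squares), with 95% intervals and filled symbols for adjusted p under 0.05. Sema6c, Ntn3 and Sema7a are filled in both regions, while Sema4a is filled in forebrain alone, at −0.75, with −0.01 in cerebellum.

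The genotype difference itself differed between regions for 1 of the 75 probe sets, where 0.282% of all were called. For Sema4a it was 0.74 ± 0.13 higher in cerebellum than in forebrain (adjusted p = 0.0241). This call was lost without cerebellum 11 weeks replicate 1 of either genotype or forebrain 11 weeks replicate 2 of either genotype (adjusted p 0.0702 to 0.0783), with no filter (0.0600) and with the replicate block (0.0587). Plxnd1 (0.47 ± 0.20, adjusted p = 0.484), Slit1 (−0.90 ± 0.27, adjusted p = 0.250), Efnb2 (0.99 ± 0.32 with 1419639_at, adjusted p = 0.285) and Epha4 (0.54 ± 0.15 with 1421928_at, adjusted p = 0.216) were not called. Efnb2 at 4 weeks had 704, 829 and 787 in wild-type and 1156, 1802 and 1608 in knock-in cerebellum, and 2336, 2221 and 3314 against 1770, 1181 and 1428 in forebrain, so that the genotypes stood apart in opposite directions in the regions. Epha4 with 1421928_at did the same at 4 weeks, with 703, 939 and 1061 against 1316, 1229 and 1301 in cerebellum and 6346, 6303 and 6015 against 4709, 4807 and 5875 in forebrain. Neither passed the test of the difference between regions. Both came from a search of all 75 probe sets for opposite separation, whose share over all probe sets is not given here. It also gave Sema7a (1422040_at), Epha3 (1425575_at) and Ntng1 (1426338_a_at) at 11 weeks, none called by that test. Epha4 with 1421929_at had −0.45 in cerebellum and −0.40 in forebrain at 4 weeks. In the same order Efnb2 had −0.58 and −0.46 with 1449549_at, −0.38 and −0.58 with 1449548_at, and 0.49 and −0.20 with 1419638_at.

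The genotype difference was called to differ between ages for no guidance probe set in either region by limma. In cerebellum 0.0256% of all probe sets were called. The lowest p among guidance probe sets there was that of Slit1 (−1.92 ± 0.38, adjusted p = 0.281), which at 4 weeks read 155, 117 and 136 in wild-type and 172, 174 and 258 in knock-in cerebellum. In forebrain 0% of all probe sets were called.

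Between ages, averaged over genotypes, 2 guidance probe sets were called in cerebellum, where 1.75% of all were, and both were lower at 11 than at 4 weeks. Unc5c fell with 1419592_at, from 3163 to 4796 over the 6 arrays at 4 weeks to 2369 to 3417 over the 4 arrays at 11 weeks (−0.53 ± 0.10, adjusted p = 0.0103), while its other probe set, 1449522_at, had −0.14 ± 0.10 and did not pass (adjusted p = 0.524). Nrp1 fell with 1418084_at, from 676 to 952 to 415 to 828 (−0.49 ± 0.11, adjusted p = 0.0354), and its other 2 probe sets had −0.42 ± 0.15 and −0.64 ± 0.25 and did not pass. The group means of 1418084_at went from 860 to 480 in wild-type and from 846 to 761 in knock-in cerebellum. No wild-type array at 11 weeks exceeded the limit with it. Unc5c was lost without the second array of either genotype at 11 weeks (adjusted p = 0.0807 and 0.0589), and Nrp1 when any of 7 of the 10 arrays was left out (highest adjusted p 0.190). The count was 0 without knock-in 11 weeks replicate 2, 4 without knock-in 11 weeks replicate 1, 2 without knock-in 4 weeks replicate 1 or 3, and 1 without any other cerebellum array. Beside this, 8 of 13 oligodendrocyte probe sets fell with age in cerebellum (summed intensity 421973 to 518652 at 4 weeks and 299487 to 336521 at 11 weeks), and their part in the guidance differences was not tested. In forebrain no guidance probe set was called by limma, where 0.096% of all were called. No guidance probe set differed between regions in its age difference by limma, where 0.0512% of all were called.

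For 19 genes more than 1 probe set could be tested. Their probe sets had the same sign for 18 genes in the wild-type and 19 in the knock-in region difference, and all were called for 13 and 12 of them. For the forebrain genotype difference the sign was shared for 12 of 19 genes, no gene had all its probe sets called, and 7 had some called. In cerebellum 8 of 19 shared the sign and 2 had some called. No gene was called in opposite directions in these 4 comparisons. Probe sets of a gene can match different transcripts or parts of a transcript, and which parts these match was not analysed here.

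**Figure D5:**
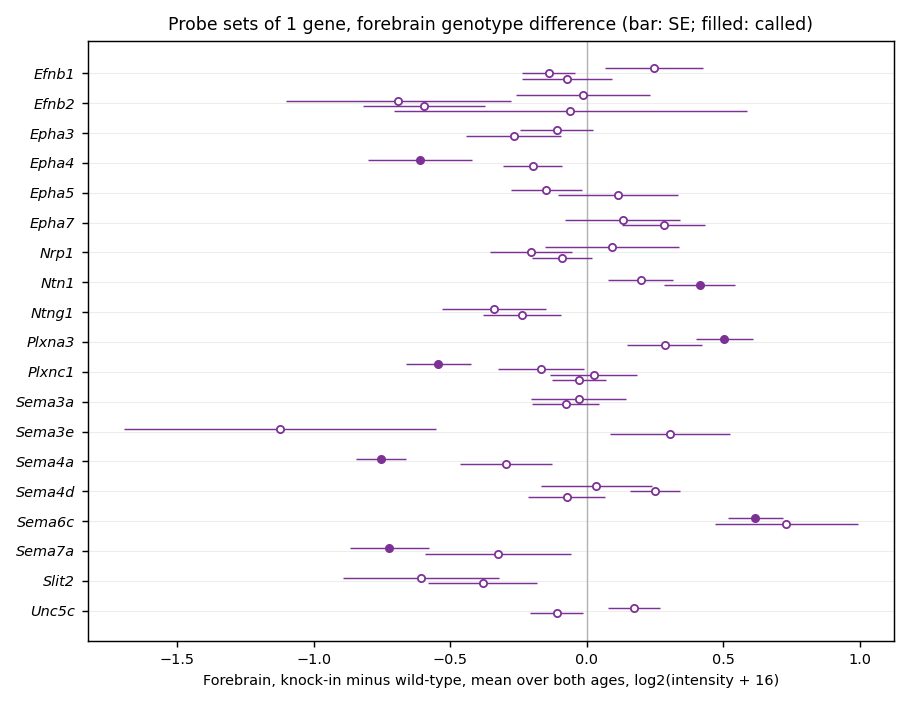
Forebrain knock-in minus wild-type difference, mean over both ages, log2(intensity + 16), of every tested probe set of the 19 guidance genes with more than 1, with bars of 1 SE and filled symbols for adjusted p under 0.05. In each of 7 genes, among them Sema4a, Sema7a and Plxnc1, a single probe set is filled and the others are open.

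The signalling partners of these receptors were followed with a list of 64 genes, of which 46 genes with 84 probe sets were bright enough. In wild-type mice 25 of the 84 were higher in cerebellum and 26 lower, or 60.7% called, beside 47.9% of all probe sets (26.6% higher and 21.3% lower), with a median of −0.04. Chn2, a Rac inhibitor of the chimaerin family, was higher by 3.90 ± 0.10 (1428574_a_at), and the actin-binding protein gene Ablim1 (1.33 ± 0.08), the Rac activator gene Tiam1 (0.92 ± 0.08) and the collapsin response mediator gene Dpysl4 (1.12 ± 0.11 with 1418298_s_at) were higher too. Ngef, an exchange factor that binds Epha4, had −4.11 ± 0.15, and Chn1, the chimaerin that acts below Epha4, had −2.51 ± 0.10. The exchange factor gene Kalrn was lower as well (−3.45 ± 0.16 with 1436066_at), and Met, a receptor that couples to B plexins, was at least 1.37-fold lower, since it exceeded the limit on no wild-type cerebellum array.

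In knock-in forebrain 4 partner probe sets rose and 7 fell of 84, or 13.1%, beside 13.5% of all probe sets. The cell adhesion gene L1cam (0.44 ± 0.07, adjusted p = 0.00206) and the actin regulators Vasp (0.48 ± 0.11) and Cfl1 (0.35 ± 0.10) rose, as did the adaptor Nck1 (at least 1.20-fold with 1424543_at, above the limit on 1 knock-in and no wild-type array). Ngef fell (−0.78 ± 0.15, adjusted p = 0.00615), as did Chn1 (−0.44 ± 0.10, adjusted p = 0.0122), Chn2 (−0.46 ± 0.10), Nrcam (−0.39 ± 0.09), Dscam (−0.67 ± 0.17), Farp1 (−0.40 ± 0.11) and Kalrn (−0.56 ± 0.16). The Chn2 probe set, 1428574_a_at, exceeded the limit on 1 of 5 knock-in forebrain arrays. Further tested probe sets of L1cam, Cfl1, Nck1, Chn2, Dscam and Kalrn did not pass. Epha4 itself fell with 1 of its 2 probe sets, a call kept in only 2 of the 10 fits that each left out 1 forebrain array. Its other probe set did not pass, and a joint change of Epha4, Ngef and Chn1 was not tested. At 4 weeks L1cam rose and Nrcam, Farp1, Ngef and Chn1 fell, where 7.37% of all probe sets were called. In cerebellum only Sdc3, a heparan sulfate proteoglycan, was called (0.50 ± 0.12, adjusted p = 0.0312), where 3.35% of all were.

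Of the cell type markers in forebrain, 5 probe sets were called between genotypes, where 13.5% of all probe sets were. Of the granule cell probe sets 3 of 9 rose: Neurod1 (0.50 ± 0.09 with 1426413_at) and, below the limit on all forebrain arrays, Gabra6 with 1451706_a_at and Cbln3. The other Gabra6 probe set, also below it, had −0.54 and did not pass. Summed granule cell intensities were 6561 to 8026 in knock-in and 5662 to 6799 in wild-type forebrain. Of the Purkinje cell probe sets 1 of 8 rose, Slc1a6 (0.49 ± 0.10), and of the astrocyte probe sets 1 of 9 fell, Aqp4 (−0.36 ± 0.10), at sums of 42027 to 58624 against 53589 to 63262. None of 5 pyramidal cell probe sets passed (median −0.27), and at 11 weeks their sums of 50503 to 59262 in knock-in forebrain lay below the 68266 to 68856 of wild-type forebrain. None passed among 2 striatal, 13 oligodendrocyte, 7 microglial, 7 endothelial and 6 choroid plexus probe sets, and in cerebellum none of all these lists. The part of these marker differences in the guidance differences was not tested.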

How the data were processed

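Total RNA of cerebellum and forebrain was measured on 20 single-channel oligonucleotide arrays. The authors deposited linear probe set intensities; every array had a 2% trimmed mean of 2500.59 to 2500.75, which shows a common scaling. For the probe summary, software and detection calls, the sources used here give nothing. Probe sets were named from the platform annotation, leaving 691 with several symbols and 1555 with none unnamed, and 64 controls out. From the deposited values log2(intensity + 16) was computed. A probe set was kept when above the array's 40th percentile (the limit) on at least 2 arrays, which left 15627 of 9105 genes. The model was fitted with limma 3.58.1 in R 4.3.3, with 1 mean per group over all 20 arrays, 12 residual and 3.45 prior degrees of freedom, and 95% intervals. A fold given as "at least" sets dim values to the limit. P-values were adjusted over all kept probe sets by Benjamini-Hochberg. The procedure was tested on simulated data. The number of arrays limits the precision.

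The members and all lists were chosen with earlier results of these data known. Genes were named by rule: called members up to 12 each way in genotype comparisons and interactions (up to 5 each way by lowest p where under 10 were called), up to 3 called genes each way per family between regions, up to 6 each way between ages, called partners, and further probe sets of these. Semaphorins beyond the 3, Robo4, genes not called between regions, and Plxnd1 among the region interactions were added after their values were seen. Alternatives were other offsets, filters, normalizations, units, models and replicate blocks, and leaving out each array.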

Additional observations from a re-analysis of the deposited data

Results flagged for a closer look

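The knock-in minus wild-type difference of Sema4a (1448110_at) differed between the regions by a test of that difference in limma. It was 0.74 higher in cerebellum than in forebrain on the log2(intensity + 16) scale (SE 0.13, adjusted p = 0.0241). Sema4a was lower on all 5 knock-in forebrain arrays than on all 5 wild-type forebrain arrays, while the cerebellum values overlapped at both ages.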

How the results depend on the processing

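Counts below are of guidance probe sets called, and every direction among them was kept: of the single genes followed, 392 results kept their call, 148 lost it and none was reversed. With an offset of 1, with a filter on 10 arrays, with cyclic loess and with the random replicate block, cerebellum at 11 weeks had 2. With no filter, forebrain at 11 weeks had 0, forebrain over both ages 8, the region interaction 0 and cerebellar age 1. Quantile normalization gave 2 for cerebellum at 11 weeks, 2 for cerebellum over both ages and 1 for cerebellar age. With 1 probe set per gene there were 39 for the wild-type region difference, 2 for cerebellum at 11 weeks and 0 for cerebellar age. With only the compared groups in the model there were 0 for cerebellum at 11 weeks, 1 for forebrain at 4 weeks, 0 for forebrain at 11 weeks, 2 for cerebellum over both ages and 0 for cerebellar age. An intensity trend in the prior gave 2, 6 and 4 for cerebellum at 11 weeks, forebrain at 4 weeks and forebrain at 11 weeks. Requiring the limit in both regions gave 39 and 38 for the wild-type and knock-in region differences, a choice made after seeing the data. Except where the alternative has fewer features or samples, the cause was not tested.

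The deviations of same-numbered arrays had correlations of −0.0992 to 0.0520 across genotypes and −0.0234 to 0.113 across regions. With correlations this small, the numbers were not taken as pairs. At 11 weeks, with 2 arrays per group, both numbers gave the same value and are not separate checks. These correlations cannot show whether cerebellum and forebrain came from the same mice. The replicate block of number within age gave 2 for cerebellum at 11 weeks and 0 for forebrain at 11 weeks, the region interaction and cerebellar age. The random replicate block had a consensus correlation of 0.0574.

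Leaving out each array in turn gave 58 to 59 for the wild-type and 54 to 58 for the knock-in region difference, 0 to 1 for cerebellum at 11 weeks, 2 to 5 for forebrain at 4 weeks, 0 for forebrain at 11 weeks, 1 to 5 for cerebellum and 6 to 12 for forebrain over both ages, 0 to 1 for the region interaction and 0 to 4 for cerebellar age. Values below the limit have no dependable size. This bears on the 13 guidance probe sets never above it in cerebellum and the 5 never above it in forebrain, among them Robo1, Slit1, Slit2 (1451430_at), Nrp1 (1448944_at) and Efnb2 (1449548_at, 1449549_at) in cerebellum and Ntn1 (1422987_at), Ntn4 and Epha8 in forebrain, and on Ntn3 in wild-type cerebellum.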
